A study of Mus musculus with 12 samples.

Results

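10 genes of the circadian clock were followed in the liver of db/db mice given molecular hydrogen (H2). They are the activators Arntl (now named Bmal1), Clock and Npas2, the repressors Per1, Per2, Per3 and Cry1, the nuclear receptors Nr1d1 and Nr1d2, and the clock-driven output factor Dbp. All non-control probes whose RefSeq record belongs to a listed gene were taken, which gave 11 probes of the 39429 on the array, and 10 of the 20283 gene symbols that the array carries. Dbp has 2 probes and each other gene has 1. The rule itself uses no measured value, but the genes were proposed with earlier results of these data known.

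The study hybridized liver RNA of H2-treated and control mice together on 12 two-color arrays, to follow gene expression over 1, 3 and 7 days of MgH2 and after 14 days of H2-water. All mice, controls included, were male db/db mice, which lack a working leptin receptor and become obese and diabetic, so no lean liver stands beside these values. The labels give an age of 8 weeks, free feeding and a light/dark cycle of 12 hours. The hour at which the livers were taken is not given in the sources used here. In the gavage groups, MgH2, which releases H2 in the stomach, was given daily for 1, 3 or 7 days. The labels state a dose of 0.9 mg/kg, the methods section names other doses, and Mg(OH)2 was the control substance. In the water group, mice drank water holding 0.8 mM H2 for 14 days, and the control water was the same water after degassing. The methods describe RNA of 9 mice, mixed in 3 sets of 3 mice each, so each array compares 1 pool with 1 pool and p-values measure the spread between pools. For the gavage control levels this holds only if each day had its own control pools, which is taken up below. The control pool carried Cy3 and the treated pool Cy5 on all 12 arrays. The dyes were not swapped, so a dye bias of a probe, if any, stays in its ratio.

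The arrays were read on 4 slides. The 3 arrays of 1 day and replicate 1 of 3 days shared slide 1, replicates 2 and 3 of 3 days and replicates 1 and 2 of 7 days shared slide 2, replicate 3 of 7 days was on slide 3, and the 3 arrays of 14 days were on slide 4. Between 51.8% and 56.5% of the spots were above background in both channels. No spot was saturated, and none of the members' spots was marked as an outlier. Of the hepatocyte markers listed, 8 of 8 were above background in every pool. In a tissue sample, fewer cells of a type and less RNA per cell cannot be told apart.

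The clock of each cell is a feedback loop that runs through about a day. CLOCK or NPAS2 pairs with BMAL1, the product of Arntl, and switches on the Per, Cry, Nr1d and Dbp genes through DNA elements called E-boxes. The PER and CRY proteins return to the nucleus and stop the pair, while REV-ERBα and REV-ERBβ, the products of Nr1d1 and Nr1d2, repress Arntl through ROR elements. DBP acts on genes with D-boxes, such as Per3. In liver, Arntl and Dbp transcripts peak at opposite times of day, and the timing of meals can set the phase, so the level of a clock transcript in a pool depends on the hour of sampling.

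The control elements named above were looked for in the 250 bases before the transcription starts that RefSeq gives for the members (assembly GRCm38.p6). Of the 10 genes, 9 had at least 1 such start in the sequence table, with 13 starts in all, and Per2 had no entry. 4 windows are shown because they hold the matches for each kind of element, E-boxes in 2 repressor genes, D-boxes in Per3 and a ROR core in a nuclear receptor gene. The matches are in capitals, and the sequences are written 5′ to 3′ along the gene. The E-box was searched as CACGTG and its variant as CACGTT or AACGTG, the ROR element core as AGGTCA or TGACCT, and the D-box as TTATGTAA, TTACATAA or TTACGTAA, so that both strands were covered. The windows are chr11:69098699-69098948 on the plus strand for Per1, inside the annotated gene, and, on the minus strand and before the annotated gene, chr10:85185055-85185304 for Cry1, chr4:151044708-151044915 for Per3 (the 208 bases of its window that lie outside the gene), and chr14:18239107-18239356 for Nr1d2.
Per1: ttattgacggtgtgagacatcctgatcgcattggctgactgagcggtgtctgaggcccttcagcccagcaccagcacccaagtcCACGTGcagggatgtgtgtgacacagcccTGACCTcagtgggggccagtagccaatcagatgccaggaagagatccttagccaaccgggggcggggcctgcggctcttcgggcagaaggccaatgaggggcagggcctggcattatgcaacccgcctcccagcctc
Cry1: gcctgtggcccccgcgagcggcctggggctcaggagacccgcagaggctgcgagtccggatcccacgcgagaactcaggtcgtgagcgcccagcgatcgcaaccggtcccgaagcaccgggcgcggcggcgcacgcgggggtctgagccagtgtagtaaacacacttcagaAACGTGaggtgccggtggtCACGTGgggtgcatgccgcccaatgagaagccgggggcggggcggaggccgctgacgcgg
Per3: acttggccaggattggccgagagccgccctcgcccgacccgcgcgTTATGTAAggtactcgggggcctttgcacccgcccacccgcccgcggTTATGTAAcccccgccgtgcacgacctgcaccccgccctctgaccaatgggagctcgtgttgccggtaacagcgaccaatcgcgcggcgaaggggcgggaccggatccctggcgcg
Nr1d2: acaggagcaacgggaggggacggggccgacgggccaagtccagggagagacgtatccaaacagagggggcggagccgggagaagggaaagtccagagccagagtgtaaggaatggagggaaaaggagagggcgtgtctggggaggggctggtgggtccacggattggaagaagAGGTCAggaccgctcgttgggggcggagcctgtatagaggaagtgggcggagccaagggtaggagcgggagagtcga
The E-box of Per1 began 166 bases before the start, and a ROR core followed at 137 bases. In Cry1 the E-box began 60 bases and its variant 79 bases before the start. Per3 held 2 D-boxes, at 205 and 158 bases, and Nr1d2 a ROR core at 77 bases. Nr1d1 held the E-box variant at 28 bases, and 1 of the 3 Clock starts a ROR core at 119 bases. The windows of Arntl, Dbp and Npas2 held none of the letters searched. Among all 32851 promoters of the table, 6.02% held the E-box, 3.85% its variant, 14.0% a ROR core and 0.931% a D-box in the same window. A match is a string of letters and says nothing on its own about binding.

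Levels are given as log2 ppm, the log2 of a signal's share of its channel's total times 1e+06, so a level can be compared between pools for a given probe but not between probes. Ratios are log2 of the treated over the control signal of an array. Arntl, Clock, Per1, Per2, Nr1d1, Nr1d2 and both Dbp probes exceeded the background in each control and each treated pool. Npas2 was not above background on any array. Per3 was above background in 5 of 12 control pools and 3 of 12 treated pools, all of them in the gavage groups. Cry1 was above background in 3 control pools, those of 14 days, and in 6 treated pools. The tests across all probes could therefore cover 7 of the 10 genes, and 8 for the ratio at 14 days, where Cry1 qualified.

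On the gavage arrays, clock transcripts differed between the control pools themselves. The control pools numbered 1 had more Arntl and less Per1, Per2 and Dbp than those numbered 2 and 3, and they did so on all 3 days. All 7 genes tested differed in control level among the replicate numbers, with day as a covariate (limma, adjusted p from 4.0e-05 to 0.032), where 26.6% of all 19450 probes tested were called. Whether the same control pools served on several days is not given in the sources used here. If they did, the 3 days are repeats of 1 pool per number, and these p-values measure the spread between arrays only. A difference of the control levels among 1, 3 and 7 days was called by limma for 0 of the 7 genes, with 0 of them at an unadjusted p under 0.05, and 0 of the 19450 probes were called (774 at an unadjusted p under 0.05).

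Arntl, whose product is the obligate partner in the activating pair, had control levels of 1.58, 1.43 and 1.37 in the pools numbered 1 on days 1, 3 and 7. The levels were 0.17, −0.06 and 0.07 in the pools numbered 2 and −0.26, −0.46 and −0.35 in those numbered 3 (adjusted p 4.0e-05, SD within a number from 0.098 to 0.114 over 3 arrays). The 3 ranges did not overlap, and the pools numbered 1 held on average 3.05 times as much Arntl signal as the others. Clock showed the same order at a smaller size, with 1.63, 1.28 and 1.33 in the pools numbered 1 and levels from 1.04 to 1.12 in the other 6 (adjusted p 0.032).

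The repressor genes ran the other way. Per1 had control levels of 4.48, 4.46 and 4.39 in the pools numbered 1, of 4.92 to 5.06 in those numbered 2, and of 5.61, 5.52 and 5.37 in those numbered 3 (adjusted p 0.00025). Per2 had −0.86, −1.19 and −1.29, then −0.42, −0.34 and −0.51, then 0.11, −0.03 and −0.06 (adjusted p 0.00085). In both genes the pools numbered 1 were lowest and those numbered 3 highest, with no overlap between numbers. Per3, a repressor family member with D-boxes in its promoter, was above background in none of the 3 control pools numbered 1, in 2 of the 3 numbered 2 and in all 3 numbered 3. Cry1 was above background in none of these 9 control pools.

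Dbp, a PAR bZIP factor that turns the clock's phase into output, had control levels of 6.39, 6.31 and 6.42 in the pools numbered 1. It reached 7.41, 7.35 and 7.38 in those numbered 2 and 7.48, 7.49 and 7.43 in those numbered 3 (adjusted p 7.7e-05). The pools numbered 1 stood apart, and the other 6 held on average 2.07 times as much Dbp signal. The second Dbp probe gave 6.23, 6.15 and 6.13 in the pools numbered 1 against levels from 7.38 to 7.60 in the other 6 (adjusted p 4.8e-05).

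The nuclear receptor genes did not share a direction. Nr1d1 was highest in the pools numbered 1, with 3.36, 3.01 and 2.84, against 2.89, 2.72 and 2.70 and then 2.06, 1.85 and 1.61 (adjusted p 0.00030), so that the pools numbered 3 lay below all others while those numbered 1 and 2 overlapped. Nr1d2 had 2.02, 1.86 and 1.95, then 2.10, 2.13 and 2.11, then 2.29, 2.20 and 2.24 (adjusted p 0.013), a span of 0.43 between the lowest and the highest pool.

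The same contrast could be read on a single slide. On slide 1, the control levels of the 1-day pools spanned 1.58, 0.17 and −0.26 for Arntl and 6.39, 7.41 and 7.48 for Dbp. On slide 2, which held no 1-day array, the 7-day pool numbered 1 had 1.37 for Arntl where the other 3 had −0.06, −0.46 and 0.07. With slide as a fixed block, 5 of the 7 genes kept a call, while Clock (adjusted p 0.066) and Nr1d2 (adjusted p 0.083) lost it, and 16.7% of all probes were called. With each of the 9 arrays left out in turn, 5 to 7 genes were called, and Arntl, Per1, Per2, Nr1d1 and Dbp were called each time. Clock lost its call without 7 and Nr1d2 without 3 of the 9 arrays (adjusted p up to 0.090 and 0.058). Without the 3 arrays numbered 1, which leaves the contrast of the pools numbered 2 and 3, 4 of 7 were called, while Dbp (adjusted p 0.18), Clock and Nr1d2 were not.

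**Figure D1:**
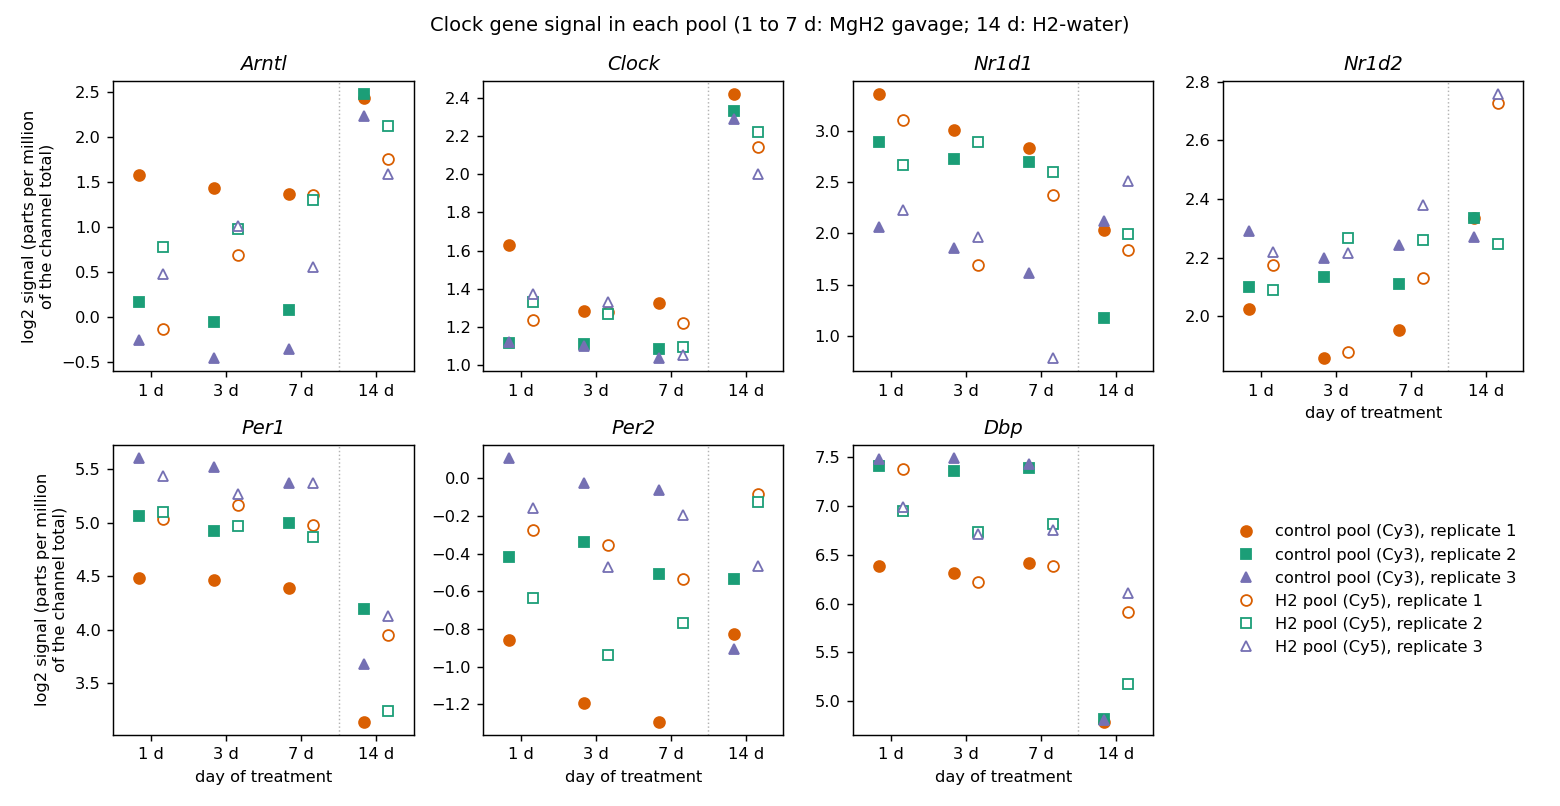
Signal of the 7 clock genes above background in every pool, as log2 ppm of the channel total (vertical axes, each with its own scale), by day of treatment (horizontal axes). Filled symbols are control pools (Cy3), open symbols H2 pools (Cy5), and color and shape give the replicate number. The control pools numbered 1 stand high for Arntl and low for Per1, Per2 and Dbp on 1, 3 and 7 days, and the pools of 14 days lie apart for Arntl, Clock, Per1 and Dbp.

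The same contrast was then made in the MgH2 pools. None of the 7 genes was called for a difference in treated level among the numbers (limma, adjusted p from 0.99 up, 2 of 7 at an unadjusted p under 0.05), and 0 of 19254 probes were called (938 at an unadjusted p under 0.05). Arntl had treated levels of −0.13, 0.69 and 1.36 in the pools numbered 1, of 0.78, 0.98 and 1.30 in those numbered 2, and of 0.48, 1.01 and 0.55 in those numbered 3. For Dbp they were 7.38, 6.22 and 6.38, then 6.94, 6.74 and 6.81, then 6.99, 6.72 and 6.75. The ranges of the numbers overlapped in both genes, and the widest range over the days was that of the pools numbered 1. The period genes, which had unadjusted p-values in limma of 0.0059 (Per1) and 0.0027 (Per2), stood apart in part. Treated Per1 was 5.27 to 5.44 in the pools numbered 3, above the 4.86 to 5.17 of the other 6, and the control pools numbered 3 were also the highest. Treated Per2 was −0.94 to −0.64 in the pools numbered 2, below the −0.54 to −0.16 of the other 6, whereas the lowest control pools were those numbered 1. Among 1, 3 and 7 days the treated levels were called for 0 of 7 genes by limma (1 at an unadjusted p under 0.05), where 11.2% of 19254 probes were.

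Whether the number effect differed between control and treated pools is given by the ratio, which takes the control from the treated level of the same array. 3 of the 7 genes were called, Arntl (adjusted p 0.034), Per1 (0.024) and Per2 (0.019), with 5 of 7 at an unadjusted p under 0.05, where 6.76% of 18987 probes were. Of the 2 Dbp probes, the brighter one missed the threshold (0.058) and the other passed it (0.036). These calls rest on few arrays. With slide as a block none of the 7 genes was called. Leaving out any of the 9 arrays but replicate 3 of 7 days lowered the count to 0 or 1.

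**Figure D2:**
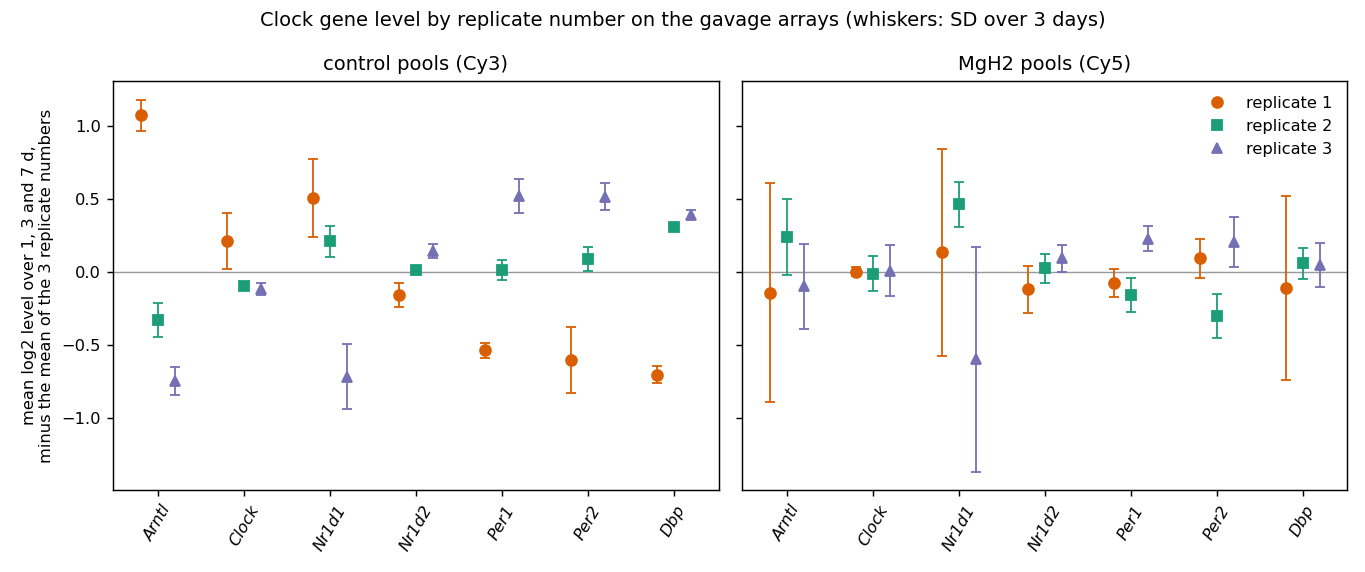
Mean log2 level of the 7 clock genes over days 1, 3 and 7 by replicate number, with the mean of the 3 numbers set to 0 for each gene (vertical axis), in control pools on the left and MgH2 pools on the right. Whiskers are the SD over 3 arrays. In the control pools the numbers do not overlap for Arntl, Per1, Per2, Nr1d2 and Dbp, while in the MgH2 pools they overlap for Arntl and Dbp, and Per1 in the numbers 3 and Per2 in the numbers 2 lie apart.

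The agreement of the control pools reached beyond the clock. Over 18394 probes, the deviations from the day mean correlated between control pools of the same number on different gavage days with r from 0.321 to 0.67 (median 0.572, 9 pairs). For control pools of different numbers r ran from −0.485 to 0.0922 (18 pairs), and for MgH2 pools of the same number from −0.296 to 0.176 (median 0.0416). The probes are not independent, deviations within a day sum to 0, and the arrays of a pair share dye and platform, so these values are a description. The labels name a control sample for each day, and a figure legend of the study describes a group with no days of MgH2. Whether the same control mice or control RNA served on several days is not given in the sources used here and was not tested. If it did, the 3 control values of a number are repeats of 1 pool, and the p-values for control levels measure the spread between arrays only. Ratios of the same number would then share a control pool as well. The main tests of the ratio among numbers and of 14 days against the gavage days make no allowance for this.

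**Figure D3:**
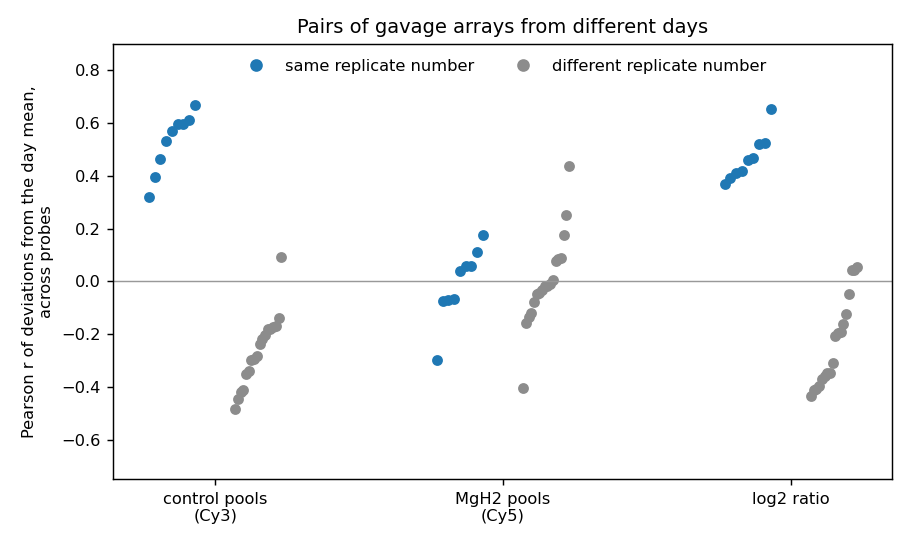
Pearson correlation, across 18394 probes, of the deviations from the day mean (vertical axis) for pairs of gavage arrays from different days, in control pools, MgH2 pools and log2 ratios (horizontal axis). Each point is a pair of arrays, blue where the replicate numbers are the same (9 pairs) and gray where they differ (18 pairs). Same-number pairs lie between 0.321 and 0.67 for control pools, and between −0.296 and 0.176 for MgH2 pools.

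Some markers of cell types also differed among the control numbers, and their part in these differences was not tested. Called were 5 of 5 red cell markers tested, 5 of 6 Kupffer cell markers, 4 of 8 hepatocyte markers and 2 of 5 leukocyte markers. So were 2 of 3 stellate cell markers, 2 of 2 bile duct cell markers and the 1 adipocyte marker tested, against 0 of 4 endothelial and 0 of 3 pancreas acinar markers. Over all probes 26.6% of 19450 were called, so 2 of 5, 0 of 4 or 0 of 3 does not set a cell type apart. The summed red cell level was 8.98 to 9.07 in the control pools numbered 1, 8.30 to 8.34 in those numbered 2 and 8.62 to 8.70 in those numbered 3. The summed adipocyte level was −0.33 to −0.15, 2.63 to 2.70 and 1.98 to 2.15, and that of hepatocytes 13.35 to 13.40, 13.14 to 13.22 and 13.22 to 13.32. The red cell sum was highest and the adipocyte sum lowest in the pools numbered 1. The adipocyte sum rests in effect on 1 gene, Cfd, since 3 of the 4 listed markers were above background on none of the gavage arrays.

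Lists of genes tied to the clock moved with the control numbers as well, beside the 26.6% of all probes. Of the liver clock output genes, 14 of 16 tested were called. Noct, a deadenylase gene, had mean control levels of 4.38, 5.14 and 5.97 in the numbers 1, 2 and 3, and Usp2, which encodes a deubiquitinase, 3.98, 4.76 and 5.24. Upp2, a uridine phosphorylase gene, had 4.84, 5.42 and 5.88, and the vasopressin receptor gene Avpr1a 1.17, 0.15 and −0.07. Noct, Usp2 and Upp2 thus ran with Per1, and Avpr1a ran with Arntl.

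All 3 D-box factors were called. Tef and Hlf, which act like DBP, had 7.05, 7.42 and 7.67, and 3.34, 3.68 and 3.74, while their rival repressor Nfil3 had 4.33, 3.85 and 3.98, highest where Dbp was lowest. Of the other genes of the loop, 4 of 12 were called, a share near the 26.6% of all 19450 probes. Among them the repressor genes Ciart (−0.50, 0.92 and 1.34) and Bhlhe40 (3.44, 3.76 and 4.07) were lowest in the numbers 1, Csnk1e, a kinase that marks PER for breakdown, was highest in the numbers 3 (1.37, against 1.09 in the numbers 2), and Timeless lowest in the numbers 2 (0.46, 0.0015 and 0.44).

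Genes that answer to meals, fasting or glucocorticoids were called too, where 26.6% of all 19450 probes were. Of the feeding-induced genes, 9 of 9 differed among the control numbers, with 2.76, 4.39 and 4.04 for the fatty acid synthase gene Fasn, 8.85, 10.12 and 9.95 for Thrsp, 5.88, 7.00 and 6.65 for the elongase gene Elovl6, and 9.32, 10.03 and 10.04 for the desaturase gene Scd1. All 4 were lowest in the pools numbered 1. Of the fasting-induced genes 6 of 9 were called, led by Igfbp1 (6.47, 6.34 and 7.53) and G6pc (8.48, 8.82 and 8.82), and of the glucocorticoid-responsive genes 7 of 8, led by the phosphatase gene Dusp1 (2.67, 3.23 and 3.77) and the kinase gene Sgk1 (2.52, 2.48 and 2.91). Of the temperature-responsive genes 4 of 7 were called, led by the heat shock gene Hspb1 (2.90, 3.54 and 2.97). In the MgH2 pools, 0 genes of each of these lists were called among the numbers by limma, as were 0 of all 19254 probes, so this says nothing particular about the lists.

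No clock gene was called by its ratio at any time point. At 1 day 0 of 7 genes were called (limma, adjusted p from 0.81 to 0.98), where 11.7% of 19660 probes were. At 3 days it was 0 of 7 against 23.6% of 19414 probes, and at 7 days 0 of 7 against 29.5% of 19461 probes (adjusted p from 0.22 up), with 0 of the 7 at an unadjusted p under 0.05 at each of these days. At 14 days it was 0 of 8 against 9.64% of 20457 probes, with 2 of 8 at an unadjusted p under 0.05. The median ratio of the genes tested was 0.02, 0.06, 0.12 and 0.18 at 1, 3, 7 and 14 days, beside −0.04, −0.03, −0.02 and −0.03 over all probes tested. None of the 7 genes was called for a difference of its ratio among 1, 3 and 7 days (adjusted p from 0.72 up, 0 of 7 at an unadjusted p under 0.05), where 2.3% of 18987 probes were. The 4 time points are therefore given by their values on each array.

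For Arntl, the ratios at 1 day were −1.71, 0.61 and 0.74 in replicates 1, 2 and 3. They were −0.74, 1.04 and 1.47 at 3 days and −0.01, 1.23 and 0.91 at 7 days, with means of −0.12 ± 1.38, 0.59 ± 1.17 and 0.71 ± 0.64 (SD, n = 3). The arrays numbered 1 were the lowest at each day, and the other 6 gavage arrays all had more Arntl in the MgH2 pool. Clock had −0.39, 0.21 and 0.25 at 1 day, −0.01, 0.15 and 0.23 at 3 days, and −0.11, 0.01 and 0.01 at 7 days. The arrays numbered 1 were again the lowest, and no ratio of Clock exceeded 0.39 in size.

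The period genes were turned the other way. Per1 had 0.55, 0.04 and −0.17 at 1 day, 0.71, 0.04 and −0.26 at 3 days, and 0.59, −0.14 and 0.0026 at 7 days. Per2 had 0.58, −0.22 and −0.26 at 1 day, 0.84, −0.60 and −0.45 at 3 days, and 0.75, −0.26 and −0.13 at 7 days. For both, the arrays numbered 1 were the highest at each day, and for Per2 they were the 3 with a ratio above 0. Per3 and Cry1 were at background in most gavage pools and are left without a mean.

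Dbp had 0.99, −0.46 and −0.49 at 1 day, −0.09, −0.62 and −0.77 at 3 days, and −0.03, −0.57 and −0.68 at 7 days, with means of 0.02 ± 0.85, −0.49 ± 0.36 and −0.43 ± 0.35 (SD, n = 3). The arrays numbered 1 were the highest at each day, and 8 of the 9 ratios lay below 0. Its second probe gave 1.15, −0.62 and −0.71, then 0.16, −0.83 and −1.06, then −0.12, −0.91 and −0.93, which differs in sign in replicate 1 of 3 days. Nr1d1 had −0.26, −0.22 and 0.17, then −1.31, 0.17 and 0.11, then −0.46, −0.10 and −0.83, with the order of the numbers changing from day to day. The ratios of Nr1d2 stayed between −0.07 and 0.18 on the 9 gavage arrays.

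**Figure D4:**
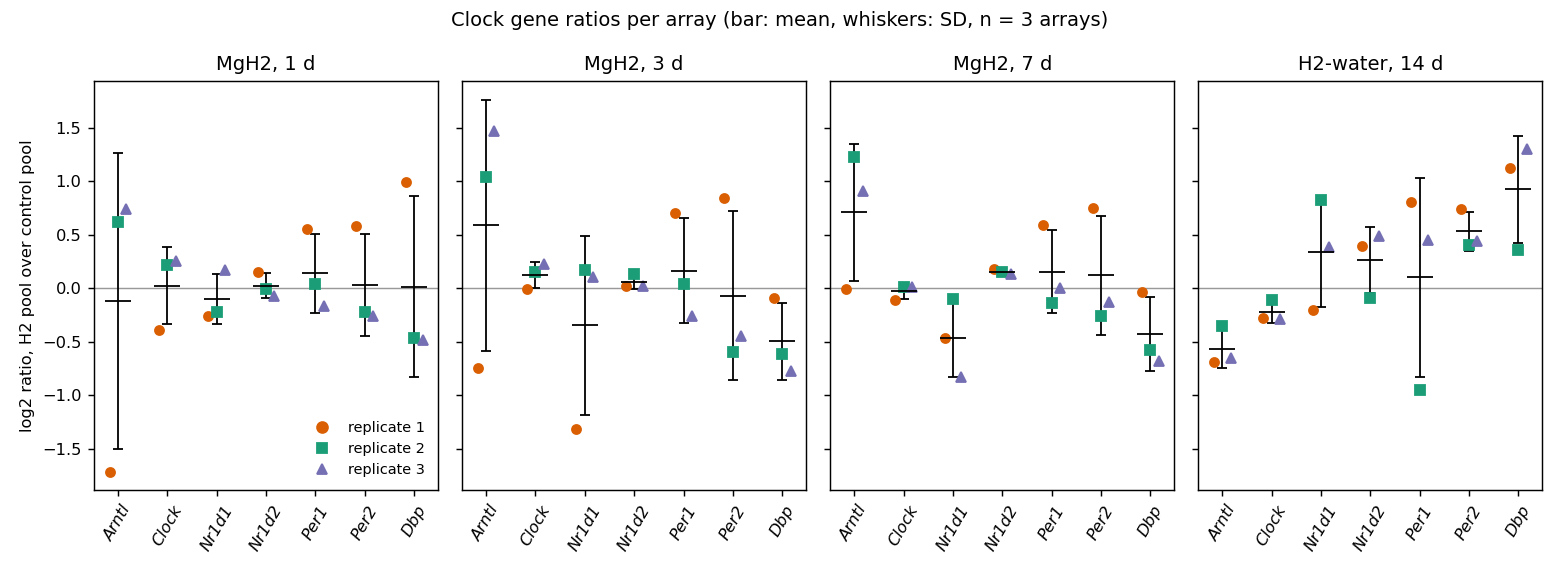
Log2 ratio of the H2 pool over the control pool (vertical axis) for the 7 clock genes (horizontal axes) on each array, after 1, 3 and 7 days of MgH2 and 14 days of H2-water. Symbols give the replicate number, bars the mean and whiskers the SD of 3 arrays. On the gavage days the arrays numbered 1 are lowest for Arntl and highest for Per2 and Dbp, and at 14 days all 3 arrays are below 0 for Arntl and above 0 for Dbp.

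Gavage arrays of the same number deviated together in their ratios, so a limma fit with the number as a block was also read. The labels state no pairing of the arrays. The block takes the differences between numbers out of the spread, so its p-values no longer measure the whole spread between pools. With the block, the ratio of Dbp was called at 3 days (−0.49, adjusted p 0.041). Those of Arntl (0.71, adjusted p 0.039) and Nr1d2 (0.16, adjusted p 0.036) were called at 7 days, and none at 1 day. The arrays numbered 1 were then left out on all gavage days, a step chosen after their values had been seen and thus no independent support. The ratio of Arntl became 0.68 at 1 day (adjusted p 0.037), 1.25 at 3 days (0.0025) and 1.07 at 7 days (0.0031), which turned its sign at 1 day. At 3 days Clock (0.19, adjusted p 0.048), Per2 (−0.52, 0.011) and Dbp (−0.70, 0.048) were called as well. The calls at the gavage days thus depended on how the replicate numbers entered the fit. The calls over all probes moved with the settings too. Over all alternatives other than single arrays left out, 0 to 3754 probes were called at 1 day. At 3 days it was 33 to 6344 and at 7 days 58 to 7439, so these calls are not read as particular to the clock.

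After 14 days of H2-water, Arntl had ratios of −0.69, −0.36 and −0.65 and Clock of −0.28, −0.11 and −0.29, all 3 below 0 in each. Dbp had 1.12, 0.35 and 1.30, and its second probe 1.16, 0.46 and 1.26. Per2 had 0.74, 0.41 and 0.44, and these 3 were also all above 0. None of the 4 genes passed the threshold. The nearest was Dbp, with a mean of 0.92 (standard error 0.288, 95% interval 0.28 to 1.57, adjusted p 0.074), followed by Nr1d2 with 0.39, −0.09 and 0.49 (mean 0.26, standard error 0.0914, adjusted p 0.10).

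Per1 (0.81, −0.95 and 0.45) and Nr1d1 (−0.20, 0.82 and 0.39) had both signs at 14 days. Cry1, above background in all 6 pools there, had −0.59, −0.14 and −0.14 (mean −0.29, standard error 0.383, adjusted p 0.70). Npas2 and Per3 were not above background in any pool of 14 days. The ratio of 14 days minus the mean of 1, 3 and 7 days was called for 0 of 7 genes by limma (1 at an unadjusted p under 0.05), where 3.21% of 18454 probes were called. The largest difference was that of Dbp, 1.23 (standard error 0.326, adjusted p 0.068). Leaving out replicate 1 of 1 day brought Dbp (1.39, adjusted p 0.023) and Clock (−0.34, adjusted p 0.028) past the threshold, and at 14 days itself leaving out replicate 2 did so for Nr1d2 (0.44, adjusted p 0.0056).

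The control pools of the water experiment stood far from those of the gavage experiment in several clock genes. This contrast was called for 5 of 7 clock genes, 3 higher and 2 lower, but also for 74.8% of all 18723 probes (50.7% higher and 24.1% lower), so the count says nothing particular about the clock. Vehicle, route, mice, slide and scanner software version all differ with it and cannot be told apart. The summed leukocyte level was 4.97 to 5.12 in the control pools of 14 days against 3.89 to 4.13 in those of the gavage days, and that of hepatocytes 12.55 to 13.13 against 13.14 to 13.40, and their part in the differences was not tested. The median difference of all probes was 0.20, and it was between −0.24 and −0.16 under the 3 other scalings of the channels, which called 4860 to 5418 probes higher and 9401 to 9989 lower where the scaling used here called 9488 and 4520, so each difference is also given relative to that median.

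Arntl had control levels of 2.44, 2.48 and 2.24 at 14 days, above all 9 gavage control pools (−0.46 to 1.58). The difference of the means was 2.00 (standard error 0.484, adjusted p 0.0032), or 1.80 relative to all probes and between 1.26 and 1.77 under the other scalings. Clock had 2.42, 2.33 and 2.29 against 1.04 to 1.63, a difference of 1.15 (adjusted p 2.8e-06), or 0.94 relative to all probes. Cry1, a repressor whose transcript follows that of the other E-box genes by several hours, had −0.20, −0.37 and −0.76. It was not above background in the 9 gavage control pools. With those pools set to a floor, it was 6.35-fold higher at 14 days under the scaling used here. The floor is, per gavage array, the lowest signal among probes well above background or the probe's own where higher. A probe not above background can exceed that floor, so 6.35 is not a strict lower bound. In the MgH2 pool numbered 3 of 7 days, Per3 at −2.66 was not above background while Cry1 at −2.78 was. The fold was not worked out relative to all probes or under the other scalings, and may be smaller there.

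Dbp had 4.79, 4.82 and 4.81 at 14 days, below all 9 gavage control pools (6.31 to 7.49). Its difference was −2.26 (standard error 0.310, adjusted p 5.5e-05), or −2.47 relative to all probes and between −2.25 and −2.19 under the other scalings, and its second probe gave −2.51. Per1 had 3.14, 4.19 and 3.68 against 4.39 to 5.61, a difference of −1.31 (adjusted p 0.0028), or −1.51 relative to all probes. High Arntl, Clock and Cry1 thus stood beside low Dbp and Per1 in these pools. Nr1d1 (−0.78, adjusted p 0.070) and Per2 (−0.25, adjusted p 0.47) missed the threshold but passed it under all 3 other scalings. Nr1d2 was called (0.21, adjusted p 0.042), but its difference equaled that of all probes (0.0087 relative to them) and turned negative under the other scalings. Leaving out any of 7 single arrays ended its call (adjusted p 0.059 to 0.11), and leaving out a gavage array numbered 3 brought Nr1d1 past the threshold (0.029 to 0.036).

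The treated pools of 14 days lay on the same side. Their Arntl levels were 1.75, 2.12 and 1.59, against −0.13 to 1.36 in the 9 MgH2 pools. Their Dbp levels were 5.91, 5.18 and 6.11 against 6.22 to 7.38, and their Per1 levels 3.95, 3.24 and 4.13 against 4.86 to 5.44. The ranges did not overlap in these 3 genes, and the treated levels were not tested against each other. Among the listed genes that act with the clock, 3 of 3 D-box factors were called in the control pools, Nfil3 (0.99) higher and Tef (−0.64) and Hlf (−0.31) lower. Of the liver clock output genes 12 of 16 were called, 7 higher and 5 lower, and of the other loop genes 6 of 11, 5 higher and 1 lower, again beside the 74.8% of all probes.

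Several lists moved by their ratio to the control at 3 and 7 days where no clock gene was called. 7 of 9 feeding-induced genes were lower on each of these days, with median ratios of −0.63 and −0.87 over the 9, where 14.5% and 17.2% of all probes were called lower. 4 of 9 fasting-induced genes were higher on each, where 9.06% and 12.2% of all probes were called higher. Markers of other cells moved on the same days, and their part in these ratios was not tested. Kupffer cell markers were lower in 4 of 6 at 3 days and 3 of 6 at 7 days, leukocyte markers in 3 of 5 on both days, and hepatocyte markers were higher in 2 of 8 and 4 of 8. Over the gavage arrays the summed Kupffer cell level was 6.85 to 7.15 in control and 6.44 to 6.85 in MgH2 pools, that of leukocytes 3.89 to 4.13 and 3.69 to 3.99, and that of hepatocytes 13.14 to 13.40 and 13.26 to 13.57. Cfd, the only 1 of 4 adipocyte markers above background, had ratios of −2.22 at 3 days (adjusted p 0.061) and −2.44 at 7 days (adjusted p 0.037). Of the liver clock output genes, 3 of 16 were called at 3 days and 5 of 16 at 7 days, near the 23.6% and 29.5% of all probes. Of the other loop genes 1 of 12 and 2 of 12 were higher. Csnk1d, which encodes a kinase that acts on PER, was called at 1, 3, 7 and 14 days with 0.33, 0.27, 0.22 and 0.30. A dye bias of its probe cannot be told apart from this, since the treated pools carried Cy5 on all 12 arrays. Cry2 was called at 7 days with 0.34 (limma, adjusted p 0.010). The ratios of these days share their spread in the fit, and the control pools of a number are alike on all 3 days.

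By a rule of likeness, the 5 genes whose ratios followed those of Arntl most closely over the 12 arrays were Lrfn3, Scfd2, Tspyl4, Insig2 and Clpx, with Pearson r from 0.962 to 0.97 among the 11550 genes that were above background throughout. For Dbp they were Rbck1, D2hgdh, Cdc42ep4, D130043K22Rik and Tdp2, with r from 0.942 to 0.968. Clock stood at rank 157 for likeness to Arntl (r 0.844), while Dbp (−0.869) and Per2 (−0.865) ran opposite to it. The arrays of the gavage days share like control pools, so these values describe the 12 arrays and carry no p.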

How the data were processed

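Liver RNA was hybridized by the authors to 12 two-color Agilent mouse arrays, control in Cy3 and treated in Cy5. The deposited intensities are Feature Extraction processed signals, background-corrected and dye-normalized within each array, per the file headers by version 10.7.3.1 for the 14-day arrays and 10.10.1.1 for the others (the submitters' processing notes name 10.10.1). The authors' value table holds log2 ratios, which equal the log10 ratios of the deposited scanner files after change of base (largest difference 1.4e-06).

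Control and outlier spots were removed, each channel was divided by its total and taken as log2 ppm, and spots of a probe were averaged. Tests were made with limma 3.58.1 in R 4.3.3, with all 12 arrays in the fit of ratios and levels by day and the 9 gavage arrays, with day as covariate, in the fit by replicate number. Benjamini-Hochberg adjustment ran over the probes above background on all arrays compared, and an adjusted p under 0.05 was a call. A gene was represented by its brightest probe. Array precision is limited by 3 pools per group. The fits were tested on simulated data with 200 changed probes. For the 14-day ratio, 70.5% of 1.5-fold and 88% of 2-fold changes were recovered among 20457 probes, and for the control level among numbers 45% and 81% among 19450. The changed probes were drawn at random from all probes tested, so these shares do not give the recovery for the clock genes. The simulated noise had the spread of arrays within a group, which holds the differences between replicate numbers. The shares for the test among numbers may therefore be too low. The standard error of the 14-day ratio was 0.502 for Arntl and 0.288 for Dbp.

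The named genes were the 10 members, up to 4 genes of each other list by the smallest p, and the 5 genes most like Arntl and like Dbp. The members and lists were chosen with earlier results of these data known. Replicate numbers come from the labels. Same-number gavage arrays deviated together in their ratios (r from 0.368 to 0.655 over 9 pairs), while arrays of 14 days and gavage did not do so throughout (from −0.0409 to 0.288), so the block was read for the gavage days only. Alternatives covered scaling, background correction, dim and outlier spots, slide, block, the arrays in the fit, the methods' t-test and each array left out. Probe and gene names came from the array files, and RefSeq (GRCm38.p6) gave the promoters. 67.9% of probes carried a symbol.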

Additional observations from a re-analysis of the deposited data

Results flagged for a closer look

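The ratio of Dbp lay above 0 on all 3 arrays of 14 days of H2-water and below 0 on all 3 arrays of 3 days and all 3 of 7 days of MgH2 by its brighter probe. The second probe had a ratio of 0.16 in replicate 1 of 3 days. By the brighter probe, the mean log2 ratio at 14 days (0.92) exceeded that at 3 days (−0.49) by 1.42 and that at 7 days (−0.43) by 1.35. These 2 differences were not tested on their own. The difference from the mean of 1, 3 and 7 days had an adjusted p of 0.068 in limma. Dose form, route, vehicle, duration, mice and slide differ between the experiments and cannot be told apart.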

How the results depend on the processing

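Over 1440 comparisons of a gene's test with its test under an alternative, 1344 stayed on the same side of the threshold without a turn of direction in a called value. Turns of sign between uncalled values are counted among the 1344. The tests among days or among numbers have no direction. Without the arrays numbered 1 (chosen after seeing the data), 1, 4 and 1 clock genes were called by the ratio at 1, 3 and 7 days, 4 for the ratio at 14 days minus gavage, 0 for the ratio among numbers and 4 for the control level among numbers, and Arntl at 1 day turned to 0.68. With the replicate block in the 9 gavage arrays, 1 gene was called at 3 days and 2 at 7 days. With the replicate block in all 12 arrays, 2 were called at 14 days (Per2 and Dbp) and 1 for 14 days minus gavage (Dbp), and the block changed no other count of clock genes beyond 1.5 times. At 14 days, normexp and loess called 2 genes (Nr1d2 and Dbp), slide as a random block 1 (Dbp), and the methods' t-test without adjustment 4. For 14 days minus gavage, normexp and loess called 1 and slide as a random block 1, Dbp each time. The ratio among numbers had 0 calls with no filter on dim probes and 0 with slide as a fixed block. With single arrays left out, calls ranged from 0 to 1 at 14 days (1 without replicate 2), from 0 to 2 for 14 days minus gavage (2 without replicate 1 of 1 day), from 0 to 3 for the ratio among numbers, from 5 to 7 for the control level among numbers and from 4 to 6 for the control level at 14 days. For the control level at 14 days, Nr1d2 turned to −0.16 with quantile scaling, −0.20 with loess and Aquantile, and −0.22 with normexp, loess and Aquantile. Calls over all probes moved as well. Over the alternatives other than single arrays left out, 0 to 3754 probes were called at 1 day and 33 to 6344 at 3 days. It was 58 to 7439 at 7 days, 11 to 4269 at 14 days and 556 to 1641 for 14 days minus gavage. Among numbers it was 0 to 1896 for the ratio and 1369 to 6161 for the control level. A change in a clock gene count is thus not read as particular to the clock. The causes were not tested. Genes near background (Npas2, Per3, Cry1) carry no mean for most pools.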

Other observations

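Ppara, which encodes a nuclear receptor of fasting and fat oxidation and is itself rhythmic in liver, was chosen after its values were seen. Its control level was 6.78 to 6.79 in the pools numbered 1, 7.16 to 7.21 in those numbered 2 and 7.19 to 7.50 in those numbered 3 (limma, adjusted p 0.0043), the order of Per1 and Dbp. Its ratios ran opposite to those of Arntl over the 12 arrays (Pearson r −0.948).

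Insig2, which holds back sterol regulatory factors and is a listed liver clock output gene, ran with Arntl in the control pools. Its control level was 7.08 to 7.14 in the numbers 1, 6.54 to 6.66 in the numbers 2 and 6.48 to 6.58 in the numbers 3. Its ratio to the control was 0.37 at 1 day (limma, adjusted p 0.20), 0.62 at 3 days (0.031) and 0.64 at 7 days (0.024). At 14 days the ratio was 0.09 (limma, adjusted p 0.81). Replicate 1 had the lowest ratio on each gavage day, with −0.12, 0.05 and 0.47 at 1, 3 and 7 days.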
